A study of Mus musculus with 16 samples.

Results

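Mast cells store a set of proteases and histamine in their granules and release them when IgE receptors on their surface are cross-linked. The 9 mast cell genes described here are the granule proteases Cpa3, Cma1, Mcpt4, Tpsb2 and Tpsab1, the IgE receptor chains Fcer1a and Ms4a2, the transcription factor Gata2 and the histamine-forming enzyme Hdc. They were taken by name from the 50600 gene identifiers of the count table, and all 9 had the 10 counts in total required of a gene to be tested, as 22155 genes did. The 5 proteases and both IgE receptor chains, 7 of the 9 genes, reached this minimum through the libraries of the AhR-poor diet, described next, since the 8 I3C libraries together held between 0 and 8 counts of each. A gene that passes in this way has to be higher on that diet, so counts and medians over the 9 genes are a description of them. The cells came from the footpad epidermis of female C57/B6J mice in 4 groups of 4 libraries, which the study describes as biological replicates. From 5 wk of age the mice were fed for 3 wk on a purified diet (AIN-93M) with no added indole-3-carbinol, called the AhR-poor diet, or on this diet supplemented with indole-3-carbinol at 200 ppm, called the I3C diet. Indole-3-carbinol is a plant compound that gives rise to ligands of the aryl hydrocarbon receptor (AhR). The footpads were then injected with 50 μl of PBS as vehicle or with PBS that held 50 μg of papain, a plant protease that acts as an allergen in the skin, and cells were taken 6 hr later from epidermis that dispase had parted from the dermis. The comparisons ask whether the diet goes with other levels of these genes without and with the allergen, and whether papain changes them on each diet. All groups received an injection, so no library shows uninjected skin, and each diet had its own cages, so diet and cage cannot be told apart. Library totals ranged from 22500821 to 51844375 counts, and 3 counts, taken as the detection floor, equalled 0.0569 to 0.130 CPM (counts over the TMM-scaled library total), a limit that covers counting error only.

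Mast cells normally sit in the dermis, around vessels and nerves, and are rare in the epidermis. Tryptases such as Tpsb2 cleave proteins at basic residues and the chymase Mcpt4 at aromatic residues, and Cma1 is a further member of the chymase family. The carboxypeptidase Cpa3 removes single residues from the end of a chain. All are held in the granule on serglycin. Fcer1a encodes the chain of the high-affinity receptor that binds IgE, and Ms4a2 the beta chain that amplifies its signal. Gata2 is a transcription factor needed for mast cell development and is also expressed in endothelial cells and blood progenitors. Hdc turns histidine into histamine in mast cells and basophils and can be induced in other myeloid cells, neutrophils among them.

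The genes lie on 7 mouse chromosomes, and none shares exonic bases with another gene in GENCODE M21 on GRCm38. Cma1 (chr14:55941451-55944675) and Mcpt4 (chr14:56059629-56062313) belong to the chymase locus on the minus strand of chromosome 14. Tpsb2 (chr17:25366305-25369098) and Tpsab1 (chr17:25343245-25345562) are neighbouring tryptase genes on opposite strands of chromosome 17. The tryptase transcripts were identical at 67.5% of aligned bases and shared no stretch of 100 bases, the read length. Cma1 and Mcpt4 transcripts were identical at 64.9% of aligned bases. The same alignment gave 58.5% for the pair Cma1 and Tpsb2 and 57.4% for the pair Fcer1a and Ms4a2. The counting tool and its strand setting are not given in the sources used here.

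Since the 9 genes were highest in the same group of libraries, the DNA just before their start sites was read for GATA letters. These are here only AGATAA or TGATAA on either strand, forms that GATA factors bind. RefSeq promoter windows of 300 bases on GRCm38.p6, from 250 before to 50 after the start, were at hand for 7 of the 9 genes, Tpsb2 and Tpsab1 not among them. GATA letters stood in the windows of 4 of the 7 genes, Fcer1a, Cpa3, Mcpt4 and Ms4a2, and in 18.6% of all 32851 windows. These forms were not found in the windows of Cma1, Hdc and Gata2. Other forms that GATA factors bind were not searched for, so the windows without a match may hold such forms. E-box letters (CACGTG or CATGTG, on either strand) stood in the window of Fcer1a alone of the 7, and in 20.4% of all windows. A match is a run of letters and not a measured binding site. The 250 bases before the start are shown for the 4 genes with a match, 5′ to 3′ along the gene, with the GATA letters in capitals.
Cpa3: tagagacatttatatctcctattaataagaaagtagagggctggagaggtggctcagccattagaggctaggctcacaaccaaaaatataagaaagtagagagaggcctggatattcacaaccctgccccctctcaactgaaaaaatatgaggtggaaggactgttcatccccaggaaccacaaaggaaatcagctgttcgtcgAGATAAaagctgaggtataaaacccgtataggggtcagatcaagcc
Mcpt4: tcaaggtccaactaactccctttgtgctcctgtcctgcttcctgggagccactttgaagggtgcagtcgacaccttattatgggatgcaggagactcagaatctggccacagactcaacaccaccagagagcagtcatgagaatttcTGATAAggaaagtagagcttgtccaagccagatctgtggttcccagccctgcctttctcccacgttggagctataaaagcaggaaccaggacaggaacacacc
Ms4a2: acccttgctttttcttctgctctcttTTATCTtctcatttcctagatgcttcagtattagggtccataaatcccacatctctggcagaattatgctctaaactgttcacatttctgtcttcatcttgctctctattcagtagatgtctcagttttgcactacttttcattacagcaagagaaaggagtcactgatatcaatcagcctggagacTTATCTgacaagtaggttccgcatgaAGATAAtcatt
Fcer1a: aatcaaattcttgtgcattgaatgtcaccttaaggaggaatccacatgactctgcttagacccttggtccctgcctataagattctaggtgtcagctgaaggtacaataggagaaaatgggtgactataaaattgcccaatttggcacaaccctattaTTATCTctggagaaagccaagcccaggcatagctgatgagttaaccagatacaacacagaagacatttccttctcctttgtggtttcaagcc
All 4 lie on the minus strand. The Cpa3 stretch is chr3:20242182-20242431 and its AGATAA begins 46 bases before the start. The Mcpt4 stretch is chr14:56062311-56062560, with a single TGATAA. The Ms4a2 stretch is chr19:11623720-11623969 and holds 3 matches, which begin 224, 37 and 11 bases before the start. The Fcer1a stretch is chr1:173227230-173227479, with 1 match beginning 92 bases before the start.

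The libraries were those of an epidermis, with keratinocyte markers (Krt5, Krt14, Krt1, Krt10, Dsg1a and Dsp) that summed to between 40888 and 67374 CPM in every library, and none of the 9 mast cell genes except Hdc exceeded 10 CPM in any library. Mast cell markers outside the 9 genes were present too. Of 9 such markers, 5 (Slc18a2, Il1rl1, Mrgprb1, Mrgprb2 and Adora3) were higher after papain in mice on the AhR-poor diet, against 7.15% of all genes tested. Slc18a2, Mrgprb1 and Mrgprb2 had 2 and 5, 3 and 4, and 4 and 0 counts in the I3C vehicle and papain groups. They too reached the minimum of 10 counts only through the AhR-poor libraries, so the count of 5 is a description. Hpgds, Cma2 and Rab27b did not pass. Rab27b was at 44.4 CPM in the AhR-poor papain group and 46.2 CPM in the I3C papain group. Kit, the receptor for stem cell factor, which mast cells share with melanocytes, was measured at 4.25 ± 0.87 CPM (SD, n = 4) in the AhR-poor papain group and 2.21 ± 0.90 CPM in the I3C papain group and did not pass the test (edgeR, adjusted p = 0.0107). Single libraries stood apart from their groups for some of the 9 genes, T100 in the AhR-poor vehicle group, T112 in the AhR-poor papain group and T106 in the I3C papain group, and the values of those genes are also given without these libraries.

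After papain, all 9 mast cell genes were higher in mice on the AhR-poor diet than in mice on the I3C diet, against 7.15% of all genes tested that were higher in the same comparison. In the I3C papain group the 5 proteases together had 7 counts over 4 libraries, against 2106 counts in the AhR-poor papain group, and the IgE receptor chains had none. Gata2 and Hdc had 21 and 323 counts in the I3C papain group. The libraries of the diets overlapped for none of the 9 genes, and 12.5% of all genes tested were likewise higher without overlap. The median log2 fold change over the 9 genes was 7.22, or 5.94 with genes at 0 counts set to their lower bound, and over all genes tested it was 0.01. In bulk samples, fewer cells of a type and less RNA per cell cannot be told apart. Genes were called with edgeR's quasi-likelihood test where the adjusted p (Benjamini-Hochberg) was below 0.01 and the log2 fold change exceeded 1 in either direction.

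**Figure D1:**
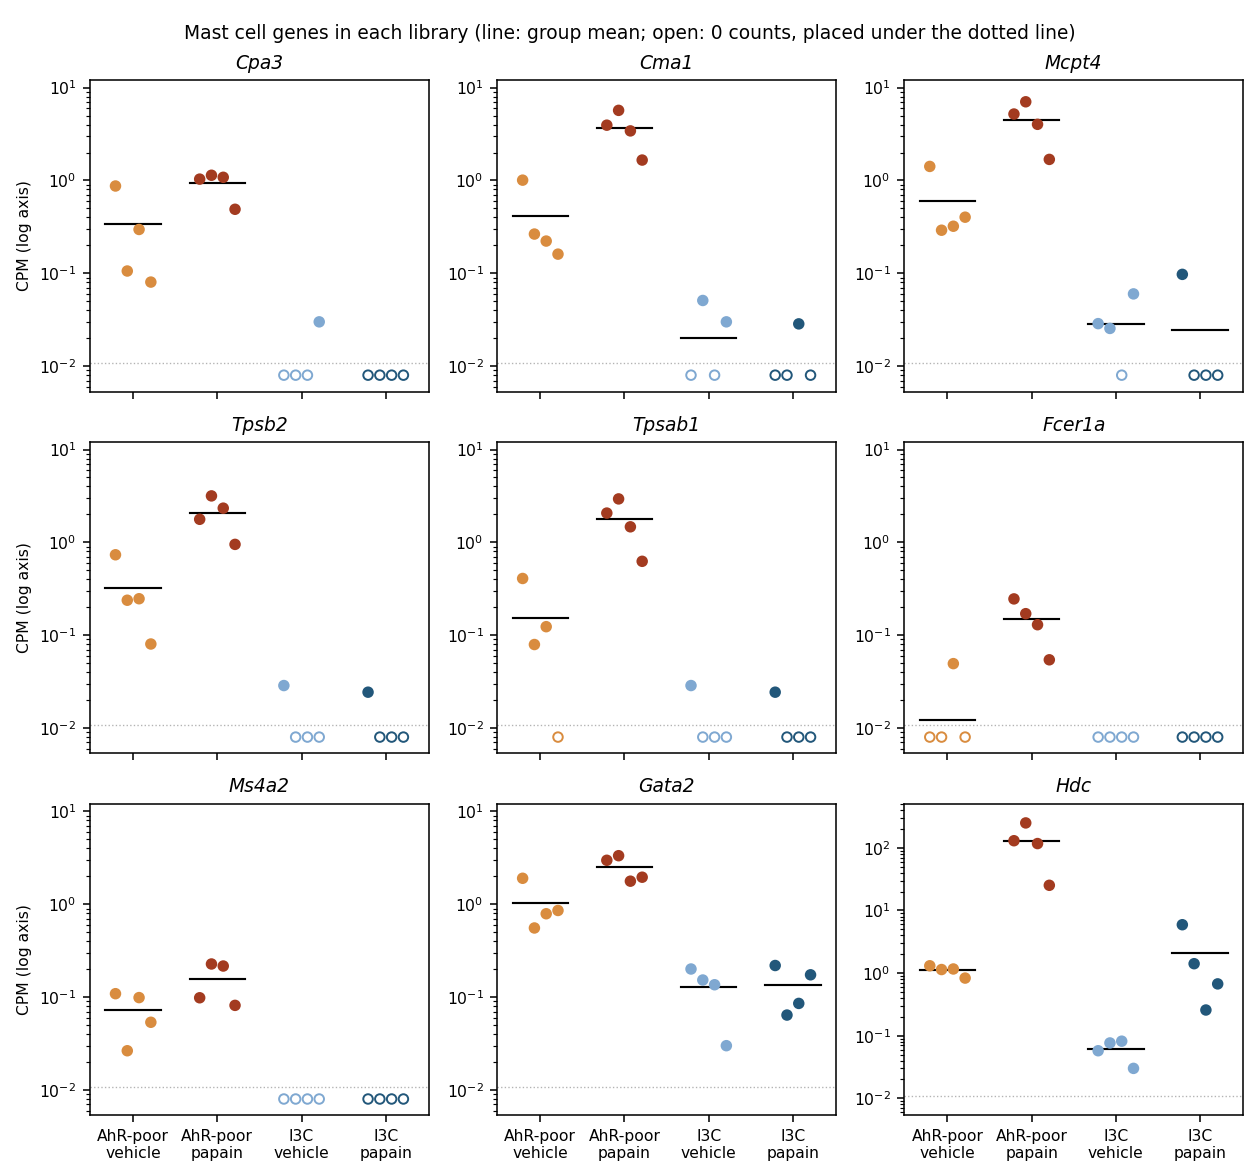
CPM of each of the 9 mast cell genes (log axis) in each library, grouped by diet and treatment, with the group mean as a line and libraries with 0 counts as open circles under the dotted line. In every panel the 4 AhR-poor papain libraries lie above the 4 I3C papain libraries, and Fcer1a and Ms4a2 have 0 counts in all 8 I3C libraries.

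Among the proteases, Mcpt4 was the most abundant, with 5.20, 7.04, 4.02 and 1.69 CPM in the AhR-poor papain libraries T104, T105, T107 and T112. In the I3C papain group it had 4 counts in library T106 (0.0974 CPM) and 0 counts in T113, T114 and T115. T112 was the lowest library of the AhR-poor papain group and still lay far above T106. The fitted log2 fold change of Mcpt4 was 7.22 ± 0.81 (SE; edgeR, adjusted p = 1.3e-05), with no overlap between the diets. Without T106 the I3C papain group had no Mcpt4 count, and the level on the AhR-poor diet was at least 171-fold higher than the floor of 3 counts over the group.

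Cma1, the other chymase-family gene, followed with 3.94, 5.69, 3.42 and 1.66 CPM in T104, T105, T107 and T112. It had a single count over the I3C papain group, in T114. The ratio of summed counts was 578, with a counting interval from 103.3 to 22850 (exact binomial, 95%), and the edgeR test gave an adjusted p of 2.4e-06. Its libraries did not overlap between the diets, and the wide interval reflects a denominator of 1 count. Without T114 the I3C papain group was at 0 counts and the level on the AhR-poor diet was at least 147-fold higher.

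The tryptase Tpsb2 had 1.77, 3.17, 2.34 and 0.952 CPM in T104, T105, T107 and T112 and 1 count over the I3C papain group, in T106. Its ratio of summed counts was 316, with a counting interval from 56.3 to 12508 (edgeR, adjusted p = 3.1e-06). The neighbouring tryptase gene Tpsab1 had 2.07, 2.94, 1.47 and 0.625 CPM in the same libraries. It too had 1 count over the I3C papain group, in T106, and a ratio of 285, with a counting interval from 50.7 to 11292 (edgeR, adjusted p = 2.3e-05). Both tryptase genes were thus highest in T105 and lowest in T112, as were Mcpt4 and Cma1. Without T106 both were at 0 counts on the I3C diet, and the levels on the AhR-poor diet were at least 75.9-fold higher for Tpsb2 and at least 68.5-fold higher for Tpsab1.

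Cpa3, the mast cell carboxypeptidase, was at 1.03, 1.14, 1.08 and 0.489 CPM in T104, T105, T107 and T112, and at 0 counts in all 4 I3C papain libraries. Set against the floor of 3 counts over that group, it was higher on the AhR-poor diet by at least 46.5-fold (edgeR, adjusted p = 0.00015). T104, T105 and T107 lay close together and T112 stood apart below them, and without T112 the difference was at least 53.6-fold.

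The IgE receptor chains were the least abundant of the 9 genes. Fcer1a had 10, 9, 3 and 2 counts in T104, T105, T107 and T112, and Ms4a2 had 4, 12, 5 and 3 counts. Neither had a count in any of the 8 I3C libraries, with either treatment. After papain both were higher on the AhR-poor diet, by at least 7.70-fold (edgeR, adjusted p = 0.0075 for Fcer1a and 0.0028 for Ms4a2). Fcer1a lost its call when any one of T104, T105, T107, T106, T113, T114 or T115 was left out, with an edgeR adjusted p between 0.0128 and 0.0225, and with DESeq2. Ms4a2 kept its call without any 1 library.

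Gata2 was measured at 2.98, 3.34, 1.77 and 1.96 CPM in the AhR-poor papain libraries and at 0.219, 0.0641, 0.0856 and 0.174 CPM in the I3C papain libraries T106, T113, T114 and T115. It had at least 1 count in every library of the series, with T111 (1 count) and T113 (2 counts) under the floor of 3 counts. The difference was 17.6-fold, a log2 fold change of 4.14 ± 0.45 (SE; edgeR, adjusted p = 3.9e-06), with no overlap between the diets.

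Hdc reached by far the highest level. The AhR-poor papain libraries T104, T105, T107 and T112 had 130.0, 250.2, 117 and 25.2 CPM. The I3C papain libraries T106, T113, T114 and T115 had 5.92, 1.41, 0.257 and 0.671 CPM. The groups did not overlap, although the libraries within each group lay far apart. The fitted difference was 61.6-fold, a log2 fold change of 5.94 ± 0.80 (SE; edgeR, adjusted p = 0.00016), and it rose to 7.43 without T106, the I3C papain library with the most Hdc.

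**Figure D2:**
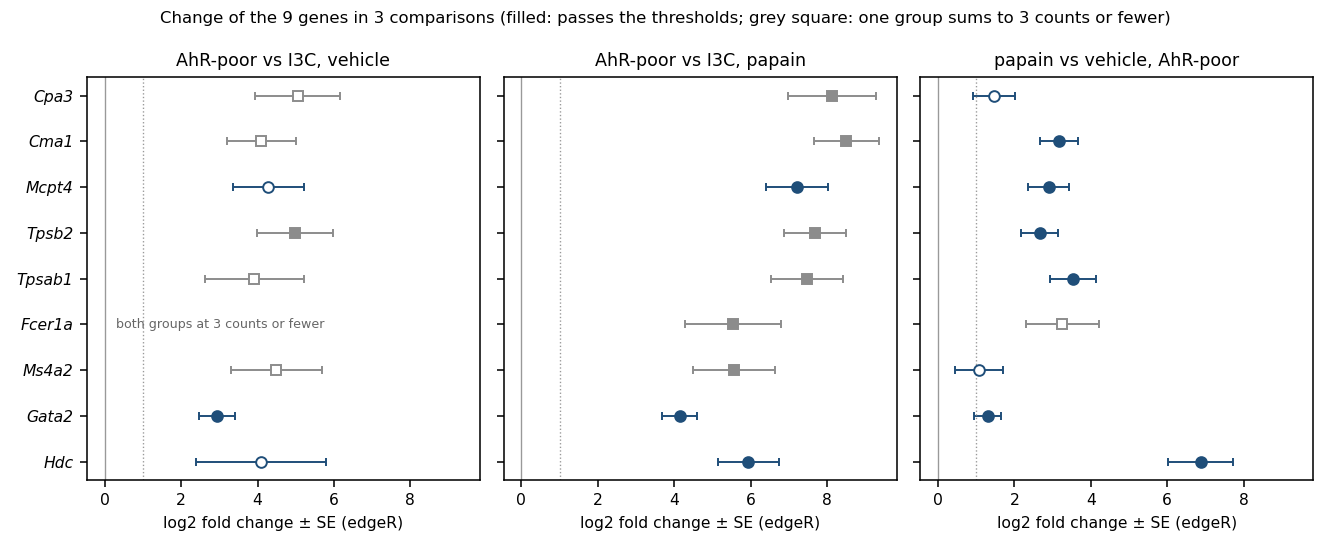
Log2 fold change of the 9 genes with its SE (edgeR) for the diet comparison with vehicle, the diet comparison with papain and papain against vehicle on the AhR-poor diet. Filled symbols passed the thresholds, and grey squares mark genes with 3 counts or fewer over one of the groups, whose fitted fold change depends on the prior count. All 9 symbols are filled in the middle panel, 2 in the left panel and 6 in the right panel.

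The same diet comparison without allergen gave smaller counts and fewer calls. In vehicle-injected mice, Tpsb2 and Gata2 were higher on the AhR-poor diet, 2 of 9 genes against 1.59% of all genes tested. All 9 fitted log2 fold changes were above 0, with a median of 4.1, or 4.08 with genes at 0 counts set to their bound, against -0.01 over all genes tested. The libraries of the diets did not overlap for 7 of the 9 genes, which held for 6.45% of all genes tested. At an unadjusted p below 0.05 edgeR had 8 of the 9 genes, and DESeq2 called 6. Counts were low here: the 5 proteases together had 276 counts on the AhR-poor diet and 10 on the I3C diet.

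Gata2 had 1.91, 0.556, 0.791 and 0.858 CPM in the AhR-poor vehicle libraries T100, T101, T102 and T103. It had 0.201, 0.153, 0.136 and 0.0300 CPM in the I3C vehicle libraries T108, T109, T110 and T111. The lowest AhR-poor library was above the highest I3C library, and the difference was 7.64-fold, a log2 fold change of 2.93 ± 0.47 (SE; edgeR, adjusted p = 0.0011). It kept its call without any 1 library.

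Tpsb2 had 27, 9, 10 and 3 counts in the AhR-poor vehicle libraries and 1 count, in T108, over the I3C vehicle group. The ratio of summed counts was 46.4, with a counting interval from 7.95 to 1870 (edgeR, adjusted p = 0.0062). The call of Tpsb2 was lost without any one of T100, T101, T106, T108, T109, T110 or T111, with an edgeR adjusted p of up to 0.0285, and in a fit of the 8 vehicle libraries alone. Without T100 the fitted log2 fold change of Tpsb2 went from 4.99 to 4.23. Without T108 the I3C vehicle group was at 0 counts and the level on the AhR-poor diet was at least 11.7-fold higher.

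The remaining proteases pointed the same way without passing the threshold. Cpa3 had 32, 4, 12 and 3 counts in T100, T101, T102 and T103 and 1 count over the I3C vehicle group, a ratio of 48.3 with a counting interval from 8.29 to 1944 (edgeR, adjusted p = 0.0181). Cma1 had 37, 10, 9 and 6 counts against 3 over the I3C vehicle group, a ratio of 19.6 with a counting interval from 6.39 to 97.5 (edgeR, adjusted p = 0.0144). Mcpt4 had 52, 11, 13 and 15 counts against 4, with a fitted log2 fold change of 4.28 ± 0.93 (SE; edgeR, adjusted p = 0.0156). In all 3 the AhR-poor libraries lay above the I3C libraries, and a two-sided exact permutation test of 4 against 4 libraries gave p = 0.0286, the least it can give. T100 held 32 of the 51 Cpa3 counts, 37 of the 62 Cma1 counts and 52 of the 91 Mcpt4 counts of the AhR-poor vehicle group. Without T100 the fitted log2 fold change went from 5.05 to 4.01 for Cpa3, from 4.1 to 3.18 for Cma1 and from 4.28 to 3.45 for Mcpt4 (edgeR, adjusted p = 0.0399, 0.0413 and 0.0406). Leaving out an I3C vehicle library in turn gave adjusted p-values of up to 0.0707, 0.0579 and 0.0597. Cpa3 passed the thresholds without T103 (edgeR, adjusted p = 0.0069), Cma1 without T103 or T112 (0.0089 and 0.0066) and Mcpt4 without T112 (0.0055). Tpsab1 had 15, 3, 5 and 0 counts against 1, and its groups overlapped (edgeR, adjusted p = 0.144).

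The IgE receptor chains could hardly be compared with vehicle. Ms4a2 had 4, 1, 4 and 2 counts on the AhR-poor diet and 0 in all 4 I3C vehicle libraries, at least 3.47-fold higher (edgeR, adjusted p = 0.0705). Fcer1a had 2 counts in T102 and none in the other 7 vehicle libraries, too few for a fold. Hdc was measured at 1.31, 1.14, 1.16 and 0.831 CPM on the AhR-poor diet and at 0.0574, 0.0765, 0.0816 and 0.0300 CPM on the I3C diet. Its groups were tight and did not overlap (two-sided exact permutation test, p = 0.0286), and the fitted log2 fold change of 4.08 ± 1.71 (SE) did not pass in the fit over all 16 libraries (edgeR, adjusted p = 0.326). DESeq2, and an edgeR fit of the 8 vehicle libraries alone, both called Hdc higher on the AhR-poor diet.

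Papain raised 6 of the 9 genes on the AhR-poor diet, against 6.04% of all genes tested that were higher in the same comparison. These were Cma1, Mcpt4, Tpsb2, Tpsab1, Gata2 and Hdc. The AhR-poor papain group is shared with the diet comparison after papain, so the 2 comparisons are not independent. The median log2 fold change over the 9 genes was 2.89, and the libraries did not overlap for 6 of the 9 genes, against 17% of all genes tested.

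Hdc changed most. The vehicle libraries lay between 0.831 and 1.31 CPM and the papain libraries between 25.2 and 250.2 CPM. The rise was 117-fold, a log2 fold change of 6.88 ± 0.85 (SE; edgeR, adjusted p = 3.9e-05). The proteases changed less. The log2 fold change was 3.54 ± 0.61 (SE) for Tpsab1, 3.16 ± 0.49 for Cma1, 2.89 ± 0.54 for Mcpt4 and 2.66 ± 0.48 for Tpsb2, with edgeR adjusted p-values from 8.8e-05 to 0.00053 and all 4 papain libraries above all 4 vehicle libraries. Cpa3 was at 0.872, 0.106, 0.297 and 0.0805 CPM with vehicle and at 0.489 to 1.14 CPM with papain, a log2 fold change of 1.46 ± 0.56 (SE) that did not pass (edgeR, adjusted p = 0.0566), nor did 1.68 without T112 (0.0361).

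The vehicle library T100 had the highest level of all 5 proteases in its group and decided part of these values. Its Cpa3 level lay above that of the papain library T112. Without T100 the log2 fold change of Cpa3 was 2.50 and it passed (edgeR, adjusted p = 0.0014). The other proteases then rose to 4.64 for Tpsab1, 4.08 for Cma1, 3.73 for Mcpt4 and 3.43 for Tpsb2 on the log2 scale. T100 was also highest in its group for the summed fibroblast markers, at 187 CPM against 106.1 to 130.1 CPM in T101, T102 and T103, and the part this plays in the protease levels was not tested.

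The make-up of the protease counts was set side by side for the 2 treatments on the AhR-poor diet. As a share of the counts of the 5 proteases, Mcpt4 held 35.9% ± 13.3 (SD, n = 4) with vehicle and 34.03% ± 2.6 with papain, and Tpsb2 18.1% ± 5.6 and 16.3% ± 2.7. Cma1 held 22.6% ± 3.5 and 28.7% ± 1.3, and its libraries did not overlap (18.4 to 27.03% with vehicle and 27.7 to 30.7% with papain). The share of Cpa3 was 16.5% ± 6.7 with vehicle and 7.72% ± 1.53 with papain, with no overlap between the groups, and the share of Tpsab1 was 6.88% ± 4.67 and 13.2% ± 1.7, also with no overlap (0 to 10.2% and 11.6 to 14.8%). The vehicle shares rest on few counts. T101, T102 and T103 held 37, 49 and 27 counts of the 5 proteases, and Tpsab1 had 0 counts in T103. These shares are a description, since the 5 add up to the whole and were not tested.

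Gata2 lay between 0.556 and 1.91 CPM with vehicle and between 1.77 and 3.34 CPM with papain, 2.47-fold higher, a log2 fold change of 1.30 ± 0.36 (SE; edgeR, adjusted p = 0.0083). Its groups overlapped, since T100 lay above T107, and the two-sided exact permutation test gave p = 0.0571. The call of Gata2 was lost without any one of T101, T102, T103, T104 or T105 (edgeR, adjusted p of up to 0.0348) and in a fit of the 8 AhR-poor libraries alone. Fcer1a went from 2 to 24 counts over the group, a ratio of 11.9 with a counting interval from 2.96 to 104.1 (edgeR, adjusted p = 0.0179). Ms4a2 had 11 counts with vehicle and 24 with papain over the group, and its libraries overlapped (edgeR, adjusted p = 0.222).

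On the I3C diet, papain changed none of the 9 genes by the thresholds of the edgeR test, against 3.69% of all genes tested that were higher. At an unadjusted p below 0.05 edgeR had 1 of the 9, Hdc, and DESeq2 also called Hdc. Hdc lay between 0.0300 and 0.0816 CPM with vehicle and between 0.257 and 5.92 CPM with papain, without overlap, a fitted log2 fold change of 5.01 ± 1.53 (SE; edgeR, adjusted p = 0.0205). Without T106 the log2 fold change was 3.53 (edgeR, adjusted p = 0.0916). The call was made without T112, a library of another group that enters the shared estimate of spread (edgeR, adjusted p = 0.0059). Of the proteases, Cpa3, Cma1, Tpsb2 and Tpsab1 had 3 counts or fewer in both I3C groups, so no fold is given. Mcpt4 had 4 counts in each group, and Gata2 had 0.130 ± 0.072 CPM (SD, n = 4) with vehicle and 0.136 ± 0.073 CPM with papain, a log2 fold change of 0.10 ± 0.60 (SE; edgeR, adjusted p = 0.929). At this depth a response of the proteases to papain on the I3C diet was not detectable, which is not the same as its absence.

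The test of whether the papain response differed between the diets passed for none of the 9 genes, with edgeR or DESeq2, and edgeR had none at an unadjusted p below 0.05. Only 0.0181% of all genes tested passed it. For Hdc, the gene with counts in all 4 groups and the largest responses, the difference was 1.86 ± 3.04 on the log2 scale (SE; edgeR, adjusted p = 0.836), the larger fitted response being on the AhR-poor diet. For Gata2 it was 1.21 ± 0.71 (SE; edgeR, adjusted p = 0.478). The I3C groups hold few counts and the errors are wide, so equal responses are not shown either.

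Levels can be compared between genes as CPM per kilobase of exon. In the AhR-poor papain group the order was Hdc (20.4 ± 14.5, SD, n = 4), Mcpt4 (4.05 ± 2.02), Cma1 (3.37 ± 1.52), Tpsb2 (1.29 ± 0.59), Tpsab1 (0.848 ± 0.466), Cpa3 (0.617 ± 0.198), Gata2 (0.465 ± 0.142), Fcer1a (0.151 ± 0.080) and Ms4a2 (0.0555 ± 0.0272). Neighbours in this order overlapped in their ranges except Gata2 and Fcer1a, where the lowest Gata2 library (0.329) lay above the highest Fcer1a library (0.247). With vehicle on the AhR-poor diet the order changed, Hdc (0.174 ± 0.031) standing below Mcpt4 (0.549 ± 0.488), Cma1 (0.380 ± 0.365), Cpa3 (0.223 ± 0.243), Tpsb2 (0.204 ± 0.178) and Gata2 (0.190 ± 0.111). These 6 overlapped in their ranges, except Hdc and Mcpt4.

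Hand-written lists of further genes of mast cell biology were counted beside the 9. Among the genes called below, Slc18a2, Tph1, Mrgprb1 and Mrgprb2 reached the minimum of 10 counts only through the AhR-poor libraries. Tph1 had 4 and 5 counts in the I3C vehicle and papain groups. The counts of called genes in their lists are therefore a description. Of all genes tested, 7.15% were higher on the AhR-poor diet after papain and 6.04% rose with papain on that diet. Of 14 genes of IgE receptor signalling, 9 were higher on the AhR-poor diet after papain and 6 rose with papain on that diet. The signalling gamma chain Fcer1g, which the IgE receptor shares with other Fc receptors, was at 24.3 CPM in the AhR-poor papain group and 2.25 CPM in the I3C papain group, 10.7-fold higher (edgeR, adjusted p = 0.00036). The receptor-proximal kinase Lyn was 10.4-fold higher (edgeR, adjusted p = 2.3e-05), the adaptor Lcp2 8.36-fold (0.00021) and the kinase Btk 4.86-fold (0.0015). The median log2 fold change of the list was 1.64. Without T106 the log2 fold change of Fcer1g went from 3.42 to 4.24 and that of Btk from 2.28 to 3.05, and in a fit of the 8 papain libraries alone Fcer1g, Lcp2 and Btk did not pass. All 4 genes are expressed in many white blood cells. With vehicle none of the 14 genes passed between the diets, with 9 at an unadjusted p below 0.05 and 2 by DESeq2. With papain on the I3C diet the kinase Syk rose and the adaptor Gab2 fell.

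Of 7 genes of the granule matrix and amine storage, 3 were higher on the AhR-poor diet after papain, and the same 3 rose with papain on the AhR-poor diet. Serglycin (Srgn), the proteoglycan core of the granule in mast cells and other white blood cells, was 26.4-fold higher between the diets (edgeR, adjusted p = 7.7e-05). Tph1, which forms serotonin, was 25.3-fold higher (edgeR, adjusted p = 0.00012). The vesicular monoamine transporter Slc18a2 was 12.2-fold higher (edgeR, adjusted p = 0.0050), and its call was lost without any one of T105, T113, T114 or T115 (edgeR, adjusted p of up to 0.0443) and in a fit of the 8 papain libraries alone. Its rise with papain was lost without T101, T103 or T105 (edgeR, adjusted p of up to 0.0381) and in a fit of the 8 AhR-poor libraries. Without T106 the log2 fold change of Srgn between the diets went from 4.72 to 5.35. The median of the list was 0.29 on the log2 scale, since Ndst2, Cd63, Vamp8 and Rab27b did not pass.

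Of 13 genes of growth, surface receptors and transcription, 5 were higher on the AhR-poor diet after papain. Il1rl1, the receptor for IL-33, stood out, at 37.4 CPM in the AhR-poor papain group, 0.199 in the I3C papain group, 0.306 in the AhR-poor vehicle group and 0.0274 in the I3C vehicle group. It was 187-fold higher between the diets after papain (edgeR, adjusted p = 2.1e-07) and rose 122-fold with papain on the AhR-poor diet (edgeR, adjusted p = 7.6e-08), and kept both calls without any 1 library. Its level in that group was above that of every protease of the list of 9. Mrgprb1 was 16.03-fold higher between the diets after papain (edgeR, adjusted p = 0.0017). The adenosine receptor Adora3 was 4.33-fold higher (edgeR, adjusted p = 0.0017). Mrgprb2, the mast cell receptor for basic secretagogues, had 0 counts in the I3C papain group and was at least 6.42-fold higher (edgeR, adjusted p = 0.0076), a call that any one of 9 libraries removed (T101, T102, T104, T105, T106, T109, T113, T114 and T115, adjusted p of up to 0.0287). The median of the list was 0.94 on the log2 scale. Without T106 the log2 fold change of Mrgprb1 went from 4.0 to 5.25 and that of Adora3 from 2.11 to 2.87, and in a fit of the 8 papain libraries alone Adora3 and Mrgprb2 did not pass. With papain on the AhR-poor diet Il1rl1 and Mrgprb1 rose, the latter not without T101, T102 or T105 (edgeR, adjusted p of up to 0.0133), and Mrgprb2 was at 0.157 CPM with vehicle and 0.111 CPM with papain (edgeR, adjusted p = 0.723).

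Among 7 genes of lipid mediators, the leukotriene genes Alox5ap (8.06-fold; edgeR, adjusted p = 6.7e-05), Alox5 (2.66-fold, 0.0053) and Ltc4s (2.28-fold, 0.0064) were higher on the AhR-poor diet after papain. The calls of Alox5 and Ltc4s were each lost without any one of 6 libraries, T104, T107, T113, T114 and T115 for both, T105 for Alox5 and T112 for Ltc4s, with adjusted p-values of up to 0.0227 and 0.0314, and Alox5 also did not pass in a fit of the 8 papain libraries alone or with the minimum lowered to 1 count. Hpgds, which forms prostaglandin D, was the 1 gene of the lists higher on the AhR-poor diet with vehicle (2.29-fold; edgeR, adjusted p = 0.0099), at the edge of the threshold and lost without any one of 12 libraries, with either other library scaling, with at least 10 counts required in every library and with the minimum lowered to 1 count. It also rose with papain on the I3C diet, 2.05-fold (edgeR, adjusted p = 0.0031), and lost that call without T108, T110, T111 or T106, with library totals unscaled and in a fit of the 8 I3C libraries alone. Of the other proteases, 4 of 9 had enough counts to be tested, and Gzmb rose 7.32-fold with papain on the AhR-poor diet (edgeR, adjusted p = 0.00029). Between the diets after papain none of these 4 passed, with 2 at an unadjusted p below 0.05 and 1 by DESeq2. Of the histamine receptors and breakdown genes, the receptor Hrh2 rose and the methyltransferase Hnmt, which inactivates histamine, fell with papain on both diets. Hrh2 rose 2.04-fold on the AhR-poor diet and 3.30-fold on the I3C diet (edgeR, adjusted p = 0.0014 and 8.7e-06). Hnmt fell by 1.0 and by 1.5 on the log2 scale (edgeR, adjusted p = 7.4e-05 and 7.0e-07). Of all genes tested, 2.42% fell with papain on the AhR-poor diet and 5.29% on the I3C diet. On the AhR-poor diet both genes lay at the fold threshold. Hrh2 fell short of it without T100 or T112, and Hnmt without any one of 12 libraries, with either other library scaling, with each other filter on low counts and with DESeq2, with log2 fold changes between -1.14 and -0.93.

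**Figure D3:**
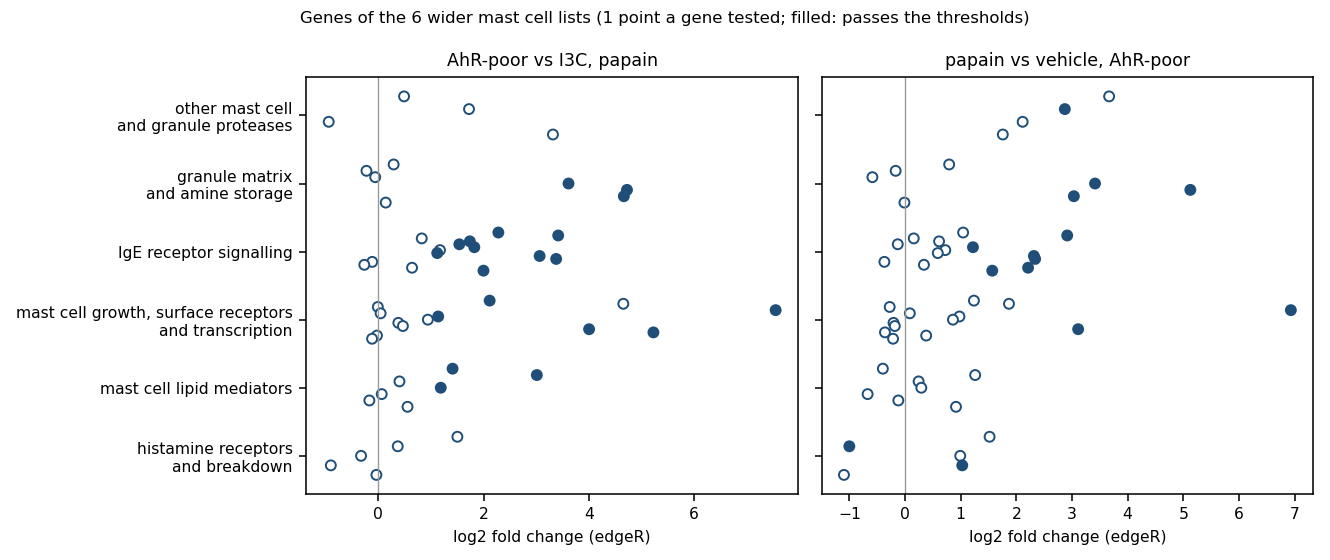
Log2 fold change (edgeR) of each tested gene in 6 lists of mast cell biology outside the 9 genes, for the diet comparison after papain and for papain against vehicle on the AhR-poor diet. Filled points passed the thresholds, the farthest to the right in both panels being Il1rl1 at 7.55 and 6.93.

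Markers of other cells moved with the mast cell genes, and their part in these results was not tested. All 10 dermal fibroblast markers were higher in mice on the AhR-poor diet, both with vehicle and with papain, and all 10 rose with papain on that diet, with median log2 fold changes of 4.12, 6.5 and 2.03. Their summed level ran from 106.1 to 187 CPM in the AhR-poor vehicle group, from 284 to 716 in the AhR-poor papain group, from 10.01 to 13.99 in the I3C vehicle group and from 2.54 to 12.9 in the I3C papain group. Col1a1, the collagen chain, was at 88.9 ± 33.3 CPM (SD, n = 4) and 1.25 ± 0.85 CPM in the papain groups of the AhR-poor and the I3C diet. All 7 endothelial markers were also higher in mice on the AhR-poor diet with either treatment, and 1 of 7 rose with papain on that diet. Their summed level was 13.1 to 39.5, 23.7 to 59.7, 0.546 to 2.65 and 0.514 to 2.17 CPM in the same 4 groups.

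The proteases can be set against the fibroblast markers within each library. Over each group, the 5 proteases had 13.7 counts per 1000 fibroblast marker counts in the AhR-poor vehicle group (95% counting interval, 12.1 to 15.5) and 24.8 (23.7 to 25.9) in the AhR-poor papain group. The I3C groups had 6.09 (2.92 to 11.2) with vehicle and 7.19 (2.88 to 14.9) with papain. By library the ratio ran from 5.57 to 23.7 in the AhR-poor vehicle group and from 18.4 to 27.9 in the AhR-poor papain group, so that T100 overlapped the papain libraries. In the I3C groups it ran from 0 to 11.4. Per 1000 endothelial marker counts, the AhR-poor groups did not overlap, with 50.4 to 112.4 for vehicle and 157.9 to 521.0 for papain. The I3C libraries ran from 0 to 157.9 with vehicle and from 0 to 67.4 with papain. Per fibroblast marker count, pooled over each group, the diets differed far less than in CPM, by 24.8 against 7.19 after papain. The summed protease counts were 2106 against 7. Of those 7 counts, T106 held 6 and T114 held 1, so the I3C papain value rests largely on T106. These intervals cover counting error only and not the spread between libraries.

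**Figure D4:**
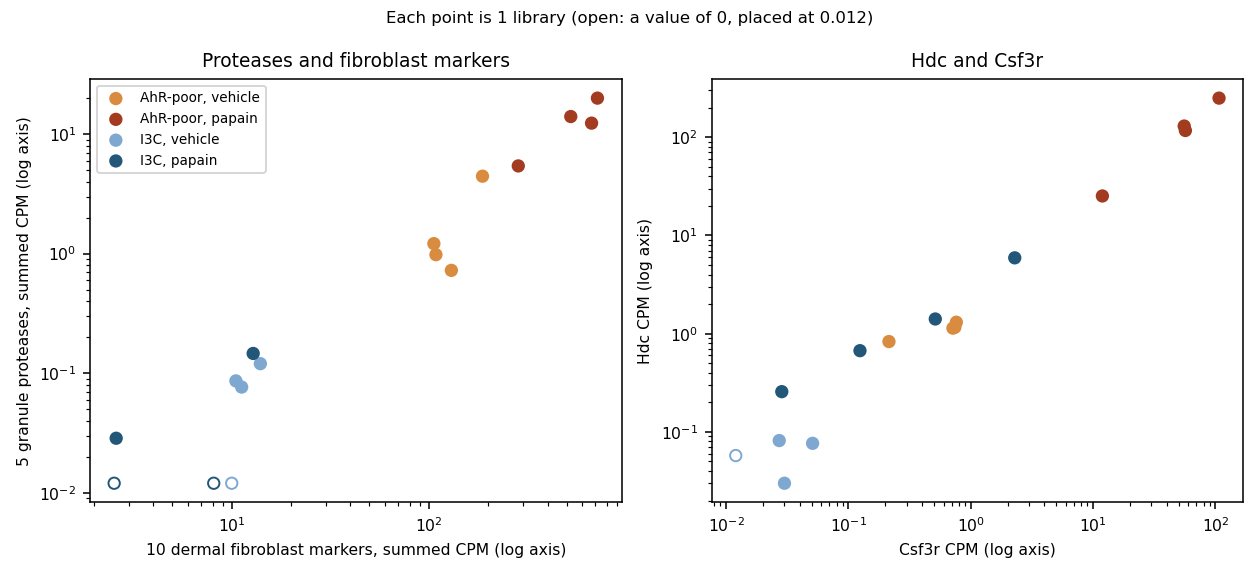
Left, summed CPM of the 5 proteases against summed CPM of 10 dermal fibroblast markers, and right, Hdc CPM against Csf3r CPM, each point 1 library on log axes, with values of 0 as open circles at the edge. In both panels the AhR-poor papain libraries lie at the upper right, and on the left the AhR-poor vehicle libraries lie between them and the I3C libraries. Within a group the order is not always shared, T103 having more fibroblast marker signal than T101 and T102 and less protease signal.

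Myeloid markers moved as well. Of 10 neutrophil markers, 5 were higher on the AhR-poor diet after papain, 8 rose with papain on the AhR-poor diet and 3 on the I3C diet. Ltf, among the first, and Ly6g, among the second, had 0 to 2 counts in each I3C group. Both reached the minimum of 10 counts only through the AhR-poor libraries. Csf3r, the G-CSF receptor, was at 57.8 ± 38.9 CPM (SD, n = 4) in the AhR-poor papain group, 0.739 ± 1.055 in the I3C papain group, 0.608 ± 0.263 in the AhR-poor vehicle group and 0.0271 ± 0.0209 in the I3C vehicle group. Hdc had 2.29 counts per Csf3r count over the AhR-poor papain group (95% counting interval, 2.24 to 2.35), 2.78 (2.25 to 3.47) over the I3C papain group, 1.82 (1.40 to 2.37) over the AhR-poor vehicle group and 2.25 (0.628 to 9.999) over the I3C vehicle group. These values are pooled over each group. By library the ratio ran from 2.06 to 2.34 in the AhR-poor papain group, from 1.57 to 3.88 in the AhR-poor vehicle group, highest in T103, and from 2.59 to 9.0 in the I3C papain group, highest in T114 with 1 Csf3r count. T106 supplied 243 of the 323 Hdc counts of the I3C papain group, and without it the pooled ratio there was 3.64. In the I3C vehicle group T108 had no Csf3r count and the other 3 libraries ran from 1 to 3. All 8 markers of monocytes and macrophages were higher on the AhR-poor diet after papain.

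Basophils share the IgE receptor, Gata2 and Hdc with mast cells. Of the defining basophil proteases, Mcpt8 had 4 counts over the AhR-poor papain group and 0 in the other 12 libraries, and Prss34 had 5 counts over the AhR-poor papain group and 1 elsewhere. Both had too few counts to be tested. The other basophil markers, Cd200r3 and Il4, had 22 counts each over the AhR-poor papain group. Over the AhR-poor vehicle, I3C vehicle and I3C papain groups, Cd200r3 had 4, 0 and 3 counts and Il4 had 3, 0 and 1. Both reached the minimum of 10 counts only through the AhR-poor libraries, and neither passed in any of the 4 comparisons. At an unadjusted p below 0.05, edgeR had both markers between the papain groups of the diets. The same held between the AhR-poor groups of the treatments. Of the eosinophil markers, Epx was at 0 counts in every library, and Siglecf, Ccr3 and Prg2 were higher on the AhR-poor diet after papain. None of the 6 keratinocyte markers passed in any of the 4 comparisons with edgeR, with 0 to 3 at an unadjusted p below 0.05. No Langerhans cell marker passed either, with 5 of 5 at an unadjusted p below 0.05 between the diets with either treatment. Their summed level ran from 764 to 865 CPM with vehicle and from 721 to 913 with papain on the AhR-poor diet. On the I3C diet it ran from 231 to 523 and from 202 to 599 CPM. Of 6 T cell markers, Thy1 alone passed, higher with papain on the AhR-poor diet.

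The genes whose pattern over the 16 libraries was most like the mean of the 5 proteases, among 16110 genes with at least 0.2 CPM on average, were Pglyrp1, Ptgis, Wnt2, Emp3 and Slc43a3, with Pearson r on log2(CPM + 0.1) of 0.98 for each. Pglyrp1 encodes a peptidoglycan-binding protein of neutrophil granules and Ptgis the prostacyclin synthase of vessels and connective tissue. Ptgis was at 14.4 CPM in the AhR-poor papain group and 0.0382 in the I3C papain group. The genes most like Hdc were Acod1, Clec4d, Ifi204, Csf3r and Ptafr, with r from 0.991 to 0.995. Acod1, which forms itaconate in activated myeloid cells, was at 219 CPM in the AhR-poor papain group and 3.36 in the I3C papain group. These correlations describe 16 libraries in 4 groups that share a diet or a treatment, and genes with like differences between the groups rank high in them. The 9 mast cell genes were themselves left out of both rankings. Of the other mast cell and granule proteases listed, all but Gzmb lay under 0.2 CPM and were not ranked. The absence of such genes from the ranks therefore tells nothing.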

How the data were processed

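Epidermal cells of the footpad were profiled by RNA-seq in 16 libraries. The authors made TruSeq Stranded libraries, aligned the reads with STAR to mm10 and deposited raw counts of reads per gene without normalization. The counting tool, annotation release and strand setting are not given in the sources used here, nor is the sequencing unit of each library. Counts were whole numbers summing to 22500821 to 51844375 per library, and intervals and floors cover counting error only. Symbols were matched to 50376 of 50600 identifiers in GENCODE M21.

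The members and gene lists were chosen with earlier results of these data known. The 22155 genes with a total of at least 10 counts were scaled with TMM and fitted in edgeR 4.0.16 (R 4.3.3) with 1 mean per group and the robust quasi-likelihood test, one fit over all 16 libraries, with p-values adjusted (Benjamini-Hochberg) over all genes. The SE is the log2 fold change divided by the root of F. Calls needed an adjusted p under 0.01 together with a log2 fold change beyond 1 in either direction. Against a group at 0 counts a fold is a lower bound set by 3 counts over the group. With 1 to 3 counts the ratio of summed counts is given with its exact interval. Exact permutation tests used log2(CPM + 0.1). The script was tested on simulated data.

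All 9 members are named. From each list at most 4 called genes are named, the largest log2 fold change first, with Kit and Fcer1g added, and the 5 genes most like the proteases and most like Hdc. The few others named in counts or as markers were chosen after their values were seen. Alternatives were other scalings (RLE factors or none), other filters (filterByExpr, 10 counts in each library, or 1 count), DESeq2 1.42.0 in place of edgeR, a fit of the 8 libraries compared, other thresholds and leaving out each library. Promoter sequences come from RefSeq (GRCm38.p6).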

Additional observations from a re-analysis of the deposited data

Results flagged for a closer look

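In 4 of 21 groups checked, 1 library stood far from the other 3 by Dixon's test. The rate of about 1 in 20 by chance holds for independent, normally spread values. The groups checked reuse the same libraries and some hold few counts, so an excess over that rate cannot be read from them. In the AhR-poor vehicle group, T100 stood above the rest for Cma1 (1.01 CPM) and for Mcpt4 (1.42 CPM). In the AhR-poor papain group, T112 stood below the rest for Cpa3 (0.489 CPM). In the I3C papain group, T106 was the 1 library with Mcpt4 counts (0.0974 CPM, 4 counts), a pattern that the test always flags. No explanation for these libraries was weighed. T100 was also the highest AhR-poor vehicle library for Cpa3, Tpsb2, Tpsab1 and Gata2, and T106 the highest I3C papain library for Gata2 and Hdc.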

How the results depend on the processing

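The count of 9 genes called between the diets after papain was 7 to 9 under every alternative run, 7 being all that filterByExpr left to test, and that of 6 called with papain on the AhR-poor diet was 5 to 7. Between the diets with vehicle the count of 2 became 6 with DESeq2 and 5 at an adjusted p below 0.05, and leaving out a library gave 1 to 4. It was 1 without T100, T101, T106, T108, T109, T110 or T111 and 4 without T103 or T112. With papain on the I3C diet the count of 0 became 1, Hdc, with filterByExpr, with DESeq2, with the 8 libraries compared and at an adjusted p below 0.05, and leaving out a library gave 0 to 1. The count of the interaction was 0 throughout. The sign reversed only for genes not called with papain on the I3C diet: leaving out a library moved the log2 fold change of Mcpt4 between -3.21 and 0.51 and that of Gata2 between -0.23 and 0.36. At least 10 counts in every library left none of the 9 genes to test. No paired analysis was possible because the groups share no replicate numbers. Depth limits the IgE receptor chains everywhere and the proteases on the I3C diet, where 3 counts or fewer per group were common. The cause of these changes was not tested.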
